A study of Mus musculus with 6 samples.

Results

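Genes of the acute-phase response and of complement were examined in mouse mammary epithelial cells treated with TGFβ1, namely Saa1, Saa2, Saa3, Lcn2, Hp, Cp, C3, Cfb, Cfi and Il22ra1. They are 10 of the 21240 genes of a table of raw RNA-seq counts and were found by symbol. The family was selected on the value of Saa3, which was among the largest decreases after 12 h of TGFβ1, so values at 12 h against vehicle are a description with no test for these genes. NMuMG is an established line of normal mouse mammary gland epithelium. The cells were grown with serum and insulin, kept without serum and insulin for 6 h, and given vehicle for 2 h, TGFβ1 at 5 ng/ml for 2 h, or TGFβ1 at 5 ng/ml for 12 h. No group carried a genetic change. The vehicle was the carrier of the TGFβ1, described as HCl with BSA in the protocol and as Tris-HCl with BSA in a sample label. Each of the 3 groups had 2 biological replicates, which gave 6 libraries of stranded total RNA. Vehicle was collected at 2 h only, so TGFβ1 for 12 h and a longer time without serum and insulin cannot be told apart.

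Acute-phase proteins are secreted in larger or smaller amounts during inflammation, mostly by the liver and also by epithelia. Their genes are classically driven by IL-6 family cytokines through STAT3, by IL-1 and TNF through NF-kB, and by C/EBP factors. Complement is a cascade of plasma proteases in which C3 is cleaved so that its fragment tags a surface. Factor B (Cfb) forms the alternative pathway enzyme that cleaves more C3, and factor I (Cfi) degrades the active C3 fragment. Il22ra1 encodes the receptor chain through which epithelia respond to IL-22 and then make serum amyloids, lipocalin 2 and other defence proteins. TGFβ1 is a cytokine that acts through SMAD factors and drives the epithelial-mesenchymal transition of NMuMG cells.

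The stretches before the start sites of 5 of the genes are shown because they include the serum amyloid paralogs, of which only Saa3 was counted here, and the genes for C3 and the IL-22 receptor chain, which changed on different schedules. They are RefSeq sequences of the GRCm38.p6 build, a later build than the mm9 build of the counts. Each is the 250 bases before the annotated start, 5′ to 3′ on the strand of the gene. Capitals mark letters that match C/EBP (TTNNGNAA) or NF-kB (GGNNTTTCC) on either strand.
Saa3, chr7:46715677-46715926, minus strand: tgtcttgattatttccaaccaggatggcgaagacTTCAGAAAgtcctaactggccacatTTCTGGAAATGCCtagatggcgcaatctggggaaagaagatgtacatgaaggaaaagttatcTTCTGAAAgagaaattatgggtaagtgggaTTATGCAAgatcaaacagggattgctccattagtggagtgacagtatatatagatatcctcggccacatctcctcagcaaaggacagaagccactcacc
Saa1, chr7:46742981-46743230, minus strand: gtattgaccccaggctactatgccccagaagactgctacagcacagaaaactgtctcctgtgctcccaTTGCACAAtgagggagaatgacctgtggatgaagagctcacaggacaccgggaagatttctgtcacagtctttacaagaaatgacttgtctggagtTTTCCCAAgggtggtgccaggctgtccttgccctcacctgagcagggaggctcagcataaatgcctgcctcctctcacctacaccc
Saa2, chr7:46751583-46751832, plus strand: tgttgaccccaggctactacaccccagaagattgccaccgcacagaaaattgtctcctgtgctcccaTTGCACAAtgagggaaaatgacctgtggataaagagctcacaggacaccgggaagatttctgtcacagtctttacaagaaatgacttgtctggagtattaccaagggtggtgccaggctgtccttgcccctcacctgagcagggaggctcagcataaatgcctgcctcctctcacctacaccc
C3, chr17:57228137-57228386, minus strand: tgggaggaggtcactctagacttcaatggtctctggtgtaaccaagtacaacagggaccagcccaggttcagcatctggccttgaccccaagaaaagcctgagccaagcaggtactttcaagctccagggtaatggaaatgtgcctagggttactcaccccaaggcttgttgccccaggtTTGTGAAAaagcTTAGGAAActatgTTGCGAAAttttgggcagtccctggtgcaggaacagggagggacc
Il22ra1, chr4:135727909-135728158, plus strand: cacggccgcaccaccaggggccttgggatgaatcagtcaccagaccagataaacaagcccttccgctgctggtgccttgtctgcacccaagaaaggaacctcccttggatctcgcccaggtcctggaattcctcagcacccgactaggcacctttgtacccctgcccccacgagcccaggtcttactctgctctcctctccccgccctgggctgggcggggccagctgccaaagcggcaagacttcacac

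Saa1 and Saa2 matched at 94.8% of the aligned positions of these stretches, whereas Saa1 and Saa3 matched at 52.5%. C3 held 3 C/EBP matches that began 70, 58 and 45 bases before its start site, and Saa3 held 4. The NF-kB match of Saa3 overlapped the C/EBP match that began 191 bases before the start. Il22ra1 held no match to either motif in this window. The letters TTNNGNAA are common, since 40.7% of all 32851 promoter windows in the table (250 bases before to 50 after a start) held a match on either strand, and 6 of the 7 genes with a window held one. GGNNTTTCC was found in 5.82% of all windows and in those of Saa3 and Cp. The STAT letters TTCNNNGAA, in 8.30% of all windows, were in none of the 7 genes. The SMAD letters CAGACA were in the windows of Il22ra1, Lcn2, Saa1 and Saa2 and in 21.0% of all windows, and the AP-1 letters TGANTCA were in those of Cp and Il22ra1 and in 7.81% of all. The letters TATAAA, those of a TATA box, were in the windows of C3 and Cp and in 13.6% of all. In C3 they began 14 bases after the start site, past the end of the stretch printed above, and in Cp the matches began 27 and 25 bases before it. The HNF1 core TTAATNATT was in the window of Cp and in 1.47% of all. The window table matched Saa1, Saa2, Saa3, Lcn2, Cp, C3 and Il22ra1.

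Libraries held 14705886 to 23786993 counts, and levels in CPM (a gene's counts scaled to a common library size) were set by edgeR's TMM factors of 0.961 to 1.07. The epithelial identity of the line was checked with 6 markers. The keratin genes Krt8, Krt18 and Krt19 and the cadherin gene Cdh1 had 5697 counts or more in every library, but Epcam had 16 counts at most and Cldn3 was at 0 in 5 libraries, with 1 count in the other. The 6 markers summed to 4957 to 5776 CPM with vehicle, 6437 to 6471 CPM at 2 h and 10316 to 10364 CPM at 12 h. Of the 4 tested, Krt8 and Krt18 rose at 12 h against vehicle by edgeR (log2 fold change, log2FC, 1.63 and 1.53, adjusted p = 0.000114 and 0.000275) and Krt19 fell (log2FC -1.95, adjusted p = 0.000103), beside 21.8% and 21.5% of all tested genes. Their part in the results was not tested. Leukocyte markers summed to 5.31 to 7.76 CPM in any library, with Ptprc at 4 counts or fewer and Fcgr1 at 0. Most of this sum was Cd68, the 1 leukocyte marker tested, with 95 to 124 counts, and Csf1r had 8 to 22. Of 6 hepatocyte markers, all were counted in every library, and their summed level was 632 to 1079 CPM with vehicle, 474 to 803 CPM at 2 h and 962 to 991 CPM at 12 h. The 6 fibroblast and adipocyte markers summed to 3.53 to 3.56 CPM with vehicle, 8.09 to 8.92 CPM at 2 h and 14.6 to 14.7 CPM at 12 h, with Thy1 at 0, and of the 2 that were tested 1, Col1a1, was called higher at both times. These are bulk samples, so fewer cells of a type and less RNA per cell cannot be told apart.

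Of the 10 genes 7, all but Saa1, Saa2 and Lcn2, reached 2 CPM in 2 libraries or more, and these were among the 11080 genes given edgeR's quasi-likelihood test. At 2 h, 1 of 7 (Il22ra1) had an adjusted p under 0.05, beside 15.2% of all tested genes, and 3 of 7 (Il22ra1, Hp and Cp) did in the blocked fit, beside 29.1%, where the block is the replicate number. Between 2 h and 12 h, 4 of the 5 genes other than Saa3 and Cfi passed, beside 34.1% of all genes (18.9% that fell and 15.2% that rose). Hp, C3, Cfb and Il22ra1 fell. With the block Cp passed too, beside 48.5% of all genes. At 12 h against vehicle, 6 of 7 had a log2FC below -1, as did 12.3% of all tested genes, and Cfi had one above 1, as did 8.18%. The rule used that contrast, and nothing is read from its count. Libraries of the groups did not overlap for 1 of the 7 genes at 2 h (higher, beside 28.4% of all genes higher and 27.5% lower). For 12 h against 2 h and for 12 h against vehicle this was so for all 7, with 6 lower and 1 higher. Over all genes, 34.2% were lower and 34.8% higher without overlap against 2 h, and 37.2% and 39.6% against vehicle. The median log2FC of the 7 genes was -0.18 at 2 h, -2.35 at 12 h against 2 h and -1.59 at 12 h against vehicle, beside -0.01, 0.01 and 0.02 over all tested genes. The filter was set on counts per library total, before TMM scaling. Saa3 passed it through both vehicle libraries and 1 library at 2 h, and not through any 12 h library. Fewer than 2 libraries outside vehicle thus reached 2 CPM, so the test of Saa3 at 2 h is void. Among the 7 genes at 2 h it is counted as not called. Cfi passed only through the 12 h libraries, where it is high, so its values at 12 h are given without a test. The counts without overlap and the medians include both genes and are descriptions. The 12 h against 2 h contrast shares its 12 h libraries with the contrast that the rule used.

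**Figure D1:**
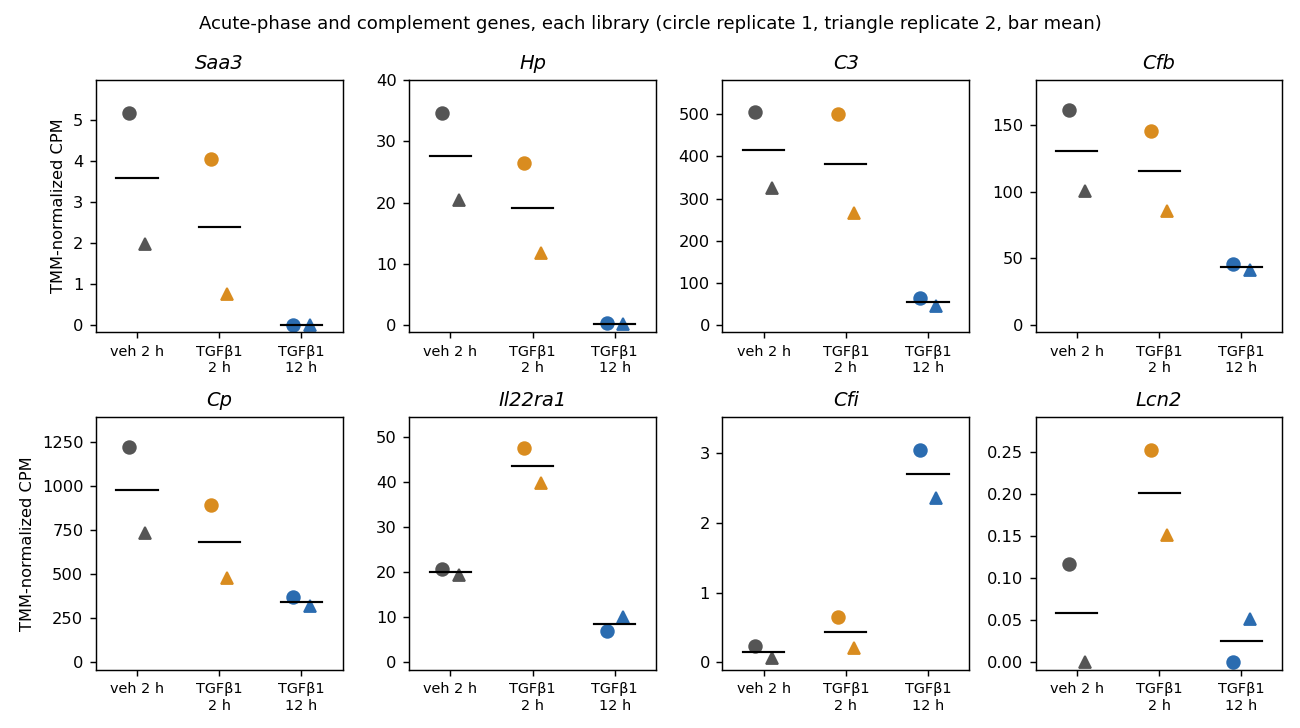
TMM-normalized CPM (y axis, linear, a scale of its own for each gene) in each of the 6 libraries for the 8 genes with any count, by group on the x axis; circles are replicate 1, triangles replicate 2 and bars the mean of 2. In Saa3, Hp, C3, Cfb and Cp both 12 h libraries lie below all others, Il22ra1 peaks at 2 h, Cfi is highest at 12 h, and Lcn2 is at most 0.253 CPM.

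Saa1, Saa2 and Saa3 encode serum amyloid A proteins, small apolipoproteins released in inflammation, of which SAA3 is the form made mainly outside the liver. All 3 genes lie on chromosome 7 of mm9, Saa3 at 53967368 to 53971046, Saa1 at 53995871 to 53998350 and Saa2 at 54007203 to 54009684. Saa1 and Saa2 had 0 counts in all 6 libraries, and a count of 0 allows up to 0.131 to 0.191 CPM per library (3 counts, counting error only). Only uniquely aligned reads were counted, and 86.6% of the 50-base exon windows of Saa1 and 88.2% of those of Saa2 occur once in the genome. Saa3 had 88 and 31 counts with vehicle, 80 and 15 after 2 h of TGFβ1, and 0 in both 12 h libraries. In CPM, Saa3 was at 5.18 and 1.97 with vehicle, 4.04 and 0.756 at 2 h and 0 at 12 h. The 2 h libraries thus overlapped those of vehicle and both 12 h libraries lay below all others. At 2 h the log2FC of Saa3 was -0.58 (SE 0.81). It is given without a test, since only 1 library outside vehicle reached 2 CPM. Mean Saa3 at 12 h was at least 25.1-fold lower than with vehicle and at least 16.9-fold lower than at 2 h, computed against 3 counts in each 12 h library. Within replicate 1 it was at least 39.6-fold lower than with vehicle and at least 31.0-fold lower than at 2 h, and within replicate 2 at least 12.8-fold and at least 4.91-fold lower, so the bound depends on the library. Of the 50-base exon windows of Saa3, 97.5% occur once in the genome.

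Lcn2 encodes lipocalin 2, which binds bacterial siderophores and withholds iron from bacteria. Its gene lies on chromosome 2 at 32240153 to 32243317 on the minus strand. Lcn2 had 2 and 0 counts with vehicle, 5 and 3 at 2 h and 0 and 1 at 12 h. Both 2 h libraries were above those with vehicle and at 12 h, but Lcn2 did not pass the filter and was not tested.

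Hp encodes haptoglobin, a plasma protein that binds free haemoglobin, and lies on chromosome 8 at 112099030 to 112103072 on the minus strand. Hp had 590 and 322 counts with vehicle, 524 and 235 at 2 h, and 6 and 2 at 12 h. Its level was 27.6 ± 10.0 CPM with vehicle, 19.2 ± 10.4 CPM at 2 h and 0.182 ± 0.112 CPM at 12 h (SD, n = 2). The vehicle and 2 h libraries overlapped, and the 12 h libraries were far below both. Hp fell by 6.63 on the log2 scale between 2 h and 12 h (SE 0.67, adjusted p = 0.0009 from edgeR). At 12 h against vehicle the log2FC of Hp was -7.15 (SE 0.67), a mean 151.7-fold lower. With 6 and 2 counts at 12 h this value depends on the library, and it was -7.99 without replicate 1 at 12 h. The log2FC of 12 h against 2 h was -7.46 without that library (adjusted p = 0.0210) and -5.93 without replicate 1 at 2 h (adjusted p = 0.000251). Within replicate 2, Hp at 12 h was at least 133-fold lower than with vehicle. At 2 h its log2FC was -0.53 (SE 0.42, adjusted p = 0.448), and with the replicate number as a block it was -0.58 (SE 0.15, adjusted p = 0.0188).

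Cp encodes ceruloplasmin, a copper-carrying ferroxidase of plasma, and lies on chromosome 3 at 19857054 to 19909145 on the plus strand. Its counts were 20766 and 11515 with vehicle, 17671 and 9488 at 2 h, and 8485 and 6196 at 12 h. In CPM, Cp was at 977 ± 345 with vehicle, 686 ± 294 at 2 h and 344 ± 36.4 at 12 h (SD, n = 2). Both 12 h libraries were below the lowest of the other 4, whereas vehicle and 2 h overlapped. The log2FC of Cp at 12 h against vehicle was -1.51 (SE 0.34). At 12 h against 2 h it was -0.997 (SE 0.34, adjusted p = 0.0631), with an adjusted p of 0.000957 in the blocked fit and 0.00666 from DESeq2. With 1 library left out, the log2FC of Cp in that contrast ran from -1.38 to -0.48. At 2 h it was -0.51 (SE 0.34, adjusted p = 0.363) without the block and -0.53 (SE 0.15, adjusted p = 0.0278) with it.

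C3, the central component of complement, lies on chromosome 17 at 57343397 to 57367559 on the minus strand. C3 had 8607 and 5115 counts with vehicle, 9911 and 5257 at 2 h, and 1447 and 889 at 12 h. Levels of C3 were 416 ± 128 CPM with vehicle, 383 ± 167 CPM at 2 h and 54.3 ± 12.3 CPM at 12 h (SD, n = 2). The 12 h libraries stood apart below the other 4. C3 fell by 2.82 on the log2 scale between 2 h and 12 h (SE 0.37, adjusted p = 0.00219), and its log2FC at 12 h against vehicle was -2.94 (SE 0.37), a mean 7.66-fold lower. At 2 h the log2FC was -0.12 (SE 0.34, adjusted p = 0.848).

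Cfb encodes factor B, the protease that pairs with the C3 fragment in the alternative pathway, and lies on the same chromosome at 34993319 to 34999463. Its counts were 2738 and 1574 with vehicle, 2875 and 1699 at 2 h, and 1042 and 804 at 12 h. Mean Cfb was 131 ± 43.0 CPM with vehicle, 116 ± 42.2 CPM at 2 h and 43.3 ± 2.91 CPM at 12 h (SD, n = 2). The 12 h libraries again lay below the other 4. Between 2 h and 12 h Cfb fell by 1.41 on the log2 scale (SE 0.30, adjusted p = 0.0132), but the adjusted p was 0.0903 without replicate 1 at 12 h and 0.108 without replicate 2 at 12 h, at a log2FC of -1.49 and -1.35. At 12 h against vehicle its log2FC was -1.59 (SE 0.31), and at 2 h it was -0.18 (SE 0.30, adjusted p = 0.732). In the annotation, exons of Cfb overlap those of Gm20547 on the same strand, so reads of these genes may not be told apart.

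Cfi encodes factor I, which inactivates the C3 fragment and so restrains the enzyme that factor B forms. It lies on chromosome 3 at 129539655 to 129578246 on the plus strand. Cfi had 4 and 1 counts with vehicle, 13 and 4 at 2 h, and 70 and 46 at 12 h. In CPM it was at 0.235 and 0.0637 with vehicle, 0.657 and 0.202 at 2 h, and 3.05 and 2.36 at 12 h. Both 12 h libraries were above the other 4, while vehicle and 2 h overlapped. The log2FC of Cfi was 1.45 at 2 h (SE 0.84, adjusted p = 0.304), 2.64 at 12 h against 2 h (SE 0.55) and 4.10 at 12 h against vehicle (SE 0.68), the values at 12 h without a test. With 1 vehicle or 2 h library left out, the log2FC at 2 h ran from 0.37 to 2.63. With either 12 h library left out, Cfi no longer passed the filter on low counts.

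Il22ra1 lies on chromosome 4 at 135284087 to 135308055 on the plus strand. It had 353 and 303 counts with vehicle, 937 and 790 at 2 h, and 162 and 197 at 12 h. Its level was 20.02 ± 1.04 CPM with vehicle, 43.6 ± 5.34 CPM at 2 h and 8.58 ± 2.16 CPM at 12 h (SD, n = 2), and no libraries of different groups overlapped. Il22ra1 rose at 2 h by a log2FC of 1.12 (SE 0.19, adjusted p = 0.0119), with 0.00140 in the blocked fit. The adjusted p was 0.0667 without vehicle replicate 1 and 0.0750 without vehicle replicate 2, at a log2FC of 1.17 and 1.07. Between 2 h and 12 h it fell by 2.35 on the log2 scale (SE 0.20, adjusted p = 0.000564), and at 12 h against vehicle its log2FC was -1.23 (SE 0.20). Il22, the gene of the ligand, had 0 counts in all 6 libraries. The partner chain gene Il10rb, named after its values were seen, had 752 and 655 counts with vehicle, 742 and 860 at 2 h and 1141 and 1048 at 12 h, with a log2FC of -0.09 at 2 h (adjusted p = 0.671) and 0.27 at 12 h (adjusted p = 0.114).

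**Figure D2:**
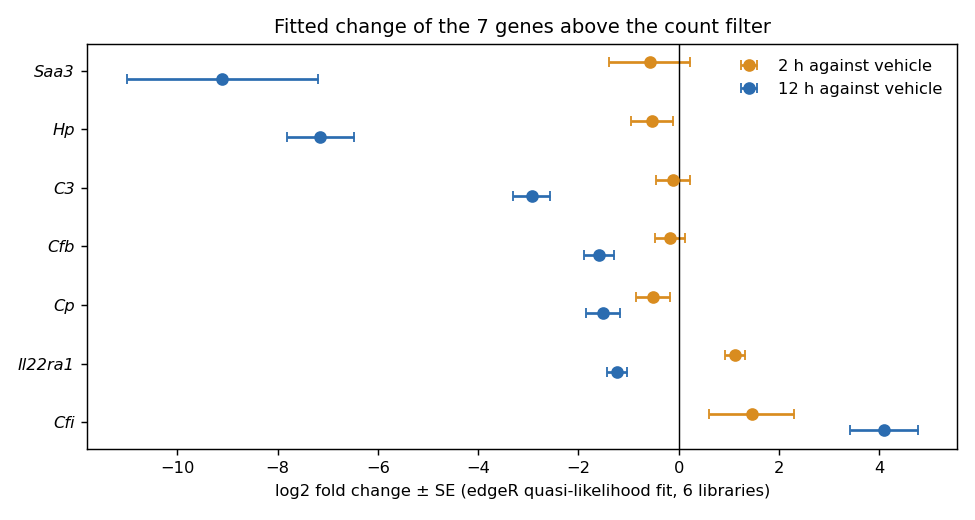
Fitted log2FC (x axis) with its SE as bars for the 7 tested genes (y axis), at 2 h in orange and 12 h in blue, each against vehicle, from 1 edgeR fit of 6 libraries. The Il22ra1 points lie at 1.12 and -1.23, on opposite sides of 0, and the Saa3 and Hp points at 12 h, -9.10 and -7.15, lie far to the left; the Saa3 value rests on 0 counts at 12 h and depends on the prior count.

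Replicate 1 had more of most of these transcripts than replicate 2 within each group. With vehicle the ratio of replicate 1 to replicate 2 in CPM was 2.62 for Saa3, 1.69 for Hp, 1.67 for Cp, 1.61 for Cfb and 1.55 for C3, and at 2 h it was 5.35, 2.24, 1.87, 1.70 and 1.89. For Il22ra1 it was 1.08 with vehicle and 1.19 at 2 h. Hp, Cp, C3, Cfb and Cfi were higher in replicate 1 in all 3 groups, which held for 21.0% of the tested genes. Alb, a hepatocyte marker, showed the same order, with 3182 and 1104 counts with vehicle, 3387 and 1025 at 2 h and 1005 and 230 at 12 h. The part of this replicate difference in the results at 2 h was not tested beyond the replicate block. Within replicate numbers, the 12 h library was below that of vehicle by a log2 ratio of -3.01 and -2.84 for C3, -1.83 and -1.28 for Cfb, -1.72 and -1.20 for Cp, and -1.56 and -0.93 for Il22ra1.

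Levels can be compared between genes only per length, and per kb of summed exons the order with vehicle was Cp, C3, Cfb, Hp, Il22ra1, Saa3 and Cfi. The level per kb with vehicle was 102 ± 36.1 CPM for Cp, 81.0 ± 24.9 CPM for C3, 46.2 ± 15.2 CPM for Cfb, 20.6 ± 7.48 CPM for Hp, 7.79 ± 0.405 CPM for Il22ra1, 6.73 ± 4.26 CPM for Saa3 and 0.0720 ± 0.0585 CPM for Cfi (SD, n = 2). The vehicle libraries of Cp and C3 overlapped on this scale, with Cp above C3 within both replicate numbers, and those of Il22ra1 and Saa3 overlapped as well. At 12 h the order per kb was Cp at 35.9 ± 3.81 CPM, Cfb at 15.3 ± 1.03 CPM, C3 at 10.6 ± 2.40 CPM, Il22ra1 at 3.34 ± 0.841 CPM, Cfi at 1.30 ± 0.234 CPM and Hp at 0.135 ± 0.0835 CPM. C3 per kb was thus above Cfb per kb with vehicle and below it at 12 h, and Cfi per kb was below Hp per kb with vehicle and above it at 12 h. Cp is the gene whose length matters most, because its longest transcript holds 4564 of its 9566 annotated exon bases and gives 214 ± 75.7 CPM per kb with vehicle (SD, n = 2). On that scale the vehicle libraries of Cp lay above those of C3 without overlap.

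Other parts of complement moved in both directions at 12 h. Of 25 further component genes in the table, 8 were tested and 12 had fewer than 4 counts in every library. At 12 h against vehicle 4 fell and 2 were called higher, beside 21.5% and 21.8% of all tested genes. A gene that passed the count filter only through the group where it was high had to differ, so its test is void, and a test was taken as void where fewer than 2 of the other libraries reached 2 CPM. This held for C4a at 12 h, and without it 1 of 7 components rose. The protease genes C1ra and C1s1 fell, and the recognition chain genes of their complex, C1qa, C1qb and C1qc, had 2 counts at most in any library and were not tested. C1ra had 881 and 608 counts with vehicle and 129 and 88 at 12 h (log2FC -3.15, SE 0.22, adjusted p = 0.000133), C1s1 had a log2FC of -3.07 (adjusted p = 0.00677), and their relative C1rl had one of -4.55 (adjusted p = 0.000339). C2, a protease of the classical pathway whose gene lies 2 places from Cfb, had a log2FC of -0.67 (adjusted p = 0.0485). C4b, whose product is cleaved by that complex, rose from 22 and 10 counts with vehicle to 61 and 54 at 2 h and 113 and 75 at 12 h, a log2FC of 1.57 at 2 h (adjusted p = 0.0362) and 2.17 at 12 h (adjusted p = 0.00378). C4b and C4a are near-identical copies, so the split of reads between them is uncertain. At 2 h C4b was the 1 component of 8 that passed, beside 15.2% of all tested genes. In the blocked fit C1rl was the other one called there (log2FC -0.61, adjusted p = 0.0131), beside 29.1%. In the fit without the block 0 passed when only vehicle and 2 h were fitted or without vehicle replicate 2, replicate 2 at 2 h or either 12 h library. Without replicate 2 at 12 h, 3 components were called at 12 h in place of 6.

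Of 19 regulators and receptors of complement, 6 were tested. At 2 h 0 passed by edgeR, beside 15.2% of all tested genes, and 1 did with the block, beside 29.1%. At 12 h 2 passed, beside 43.3%, and 5 with the block, 3 higher and 2 lower, beside 55.3%. At 12 h Clu, the gene for clusterin, a chaperone that inhibits the terminal complex, rose from 14541 and 5650 counts with vehicle to 302060 and 201738 (log2FC 4.27, SE 0.52, adjusted p = 0.000943). C4bp, whose product binds C4 fragments and serves factor I as a cofactor, fell from 548 and 312 counts to 95 and 81 (log2FC -2.65, SE 0.35, adjusted p = 0.00134).

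Among 34 other acute-phase proteins, 15 were tested, and at 12 h 7 were called lower and 1 rose, beside 21.5% and 21.8% of all tested genes. Without Fga, whose test was void, 6 of 14 fell. In the blocked fit 9 were called lower at 12 h, Fga counted, and 1 higher, beside 55.3% of all tested genes called in either direction. Of the 3 fibrinogen chain genes, Fgb fell at 12 h, and Fgg, with 6 and 4 counts with vehicle, 19 and 1 at 2 h and 5 and 0 at 12 h, was not tested. Fga passed the count filter only through the vehicle libraries and had 37 and 34 counts with vehicle, 15 and 7 at 2 h and 5 and 0 at 12 h. Fgb had 185 and 58 counts with vehicle and 17 and 2 at 12 h (log2FC -4.04, adjusted p = 0.0148). Itih2, which encodes a heavy chain of the inter-alpha-trypsin inhibitor, fell as well (log2FC -2.004, adjusted p = 0.0158). Steap4, a metalloreductase gene, rose from 9 and 7 counts with vehicle to 96 and 97 at 2 h and 108 and 65 at 12 h, a log2FC of 3.30 at 2 h (adjusted p = 0.00157) and 3.03 at 12 h (adjusted p = 0.000601). Steap4 was the 1 gene of this list called at 2 h, and 5 were called there with the block, Fga counted, beside 15.2% and 29.1% of all tested genes. Without vehicle replicate 1, 3 of the list were called at 12 h, and 5 and 4 without replicate 1 and replicate 2 at 12 h. Summed hepatocyte markers, given above, rested mostly on Apob, and of the 6 markers 1, Fgb, fell at 12 h, beside 21.5% of all tested genes. In the blocked fit 4 were called lower, Apoa1 with its void test counted, and 1 higher, beside 55.3% called in either direction. Their part in the lower acute-phase genes was not tested.

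Of 30 genes for the cytokines that drive such genes, their receptor chains and STAT3 signalling, 22 were tested, and 6 rose and 1 fell at 2 h, beside 9.91% and 5.25% of all tested genes. Il11, a cytokine of the IL-6 family, rose from 2 and 1 counts with vehicle to 12 and 14 at 2 h (log2FC 2.76, adjusted p = 0.0157). It had 170 and 121 counts at 12 h and passed the count filter only through those libraries, so its test at 12 h is void. Il1r1, the IL-1 receptor, rose at 2 h by a log2FC of 0.96 (adjusted p = 0.0328), the kinase gene Jak2 by 0.76 (adjusted p = 0.0268) and the IL-17 receptor chain gene Il17ra by 0.75 (adjusted p = 0.00680). At 12 h 7 genes of the list were called higher and 8 fell, beside 21.8% and 21.5% of all tested genes, and 5 of 20 rose without Il11 and Il1rl1, whose tests were void. Lif, another IL-6 family cytokine, rose from 211 and 234 counts to 1239 in both 12 h libraries (log2FC 2.11, adjusted p = 0.000436), and the IL-33 receptor gene Il1rl1 had a log2FC of 2.62, with no test. Il1rap, the shared accessory chain of the IL-1 receptor family, fell at 12 h (log2FC -1.24, adjusted p = 0.0108). The 7 calls of this list at 2 h became 1 when only vehicle and 2 h were fitted, 0 without vehicle replicate 1, and 1 without vehicle replicate 2 or without either 12 h library. Without replicate 1 at 12 h, 7 of the list were called at 12 h.

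Of 24 genes listed for the transcription factors of acute-phase promoters, 22 were tested. The list also holds Nfkbia and Nfkbie, which encode IkB proteins that restrain NF-kB. At 2 h 5 rose and 2 fell, beside 9.91% and 5.25% of all tested genes, and with the block 9 rose and 5 fell, beside 29.1% called in either direction. At 12 h 3 rose and 12 fell, beside 21.8% and 21.5% of all tested genes. Nfkbia was among the 12 (log2FC -0.90, adjusted p = 0.00243 by edgeR), and Nfkbie was not called. Cebpa had 2041 and 1415 counts with vehicle, 1494 and 907 at 2 h and 206 and 145 at 12 h, with a log2FC of -0.79 at 2 h (adjusted p = 0.0895, and 0.000945 in the blocked fit at a log2FC of -0.82) and -3.68 at 12 h (SE 0.29, adjusted p = 0.000193). Cebpb, a related factor, moved the other way, from 191 and 149 counts to 609 and 730 at 2 h and 409 and 316 at 12 h (log2FC 1.70 at 2 h, adjusted p = 0.00147). Hnf4a and Foxa3, liver-enriched factors, rose at 2 h by a log2FC of 1.63 (adjusted p = 0.00102) and 1.84 (adjusted p = 0.00126), and Hnf4a had 8350 and 6663 counts with vehicle, 29983 and 26089 at 2 h and 8604 and 8533 at 12 h. Foxa2 fell at both times, with a log2FC of -1.94 at 2 h (adjusted p = 0.000725) and -2.62 at 12 h (adjusted p = 7.97e-05). Ehf, an epithelial ETS factor, fell at 12 h with a log2FC of -3.36 (adjusted p = 0.000228), and Bcl3, a nuclear IkB protein, with -1.70 (adjusted p = 0.000306). Without replicate 1 at 12 h, 9 of this list were called at 12 h in place of 15.

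Of 26 secreted or apical defence proteins of epithelia 7 were tested, and at 12 h all 7 were called lower, beside 21.5% of all tested genes. Without Ccl20 and Slpi, whose tests were void at both times, all 5 fell. The chemokine gene Ccl20 had 130 and 80 counts with vehicle, 12 and 12 at 2 h and 0 and 1 at 12 h, and passed the count filter only through the vehicle libraries. Cxcl5, a neutrophil chemokine, had 6811 and 2465 counts with vehicle, 783 and 289 at 2 h and 49 and 35 at 12 h (log2FC -3.36 and -7.14, adjusted p = 0.0123 and 0.000514). Cxcl1 and Il33 also fell at 2 h, with a log2FC of -2.63 (adjusted p = 0.00621) and -0.80 (adjusted p = 0.0235), so that 3 of the 5 fell at 2 h, beside 5.25% of all tested genes, and 4 of the 7 were called lower there with Ccl20 counted. At 12 h the log2FC of Il33 was -4.56 (adjusted p = 3.77e-05), and Slpi, an inhibitor of leukocyte proteases, had 51 and 27 counts with vehicle and 3 and 0 at 12 h. In place of 4, 2 were called at 2 h when only vehicle and 2 h were fitted or when vehicle replicate 1 was left out.

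**Figure D3:**
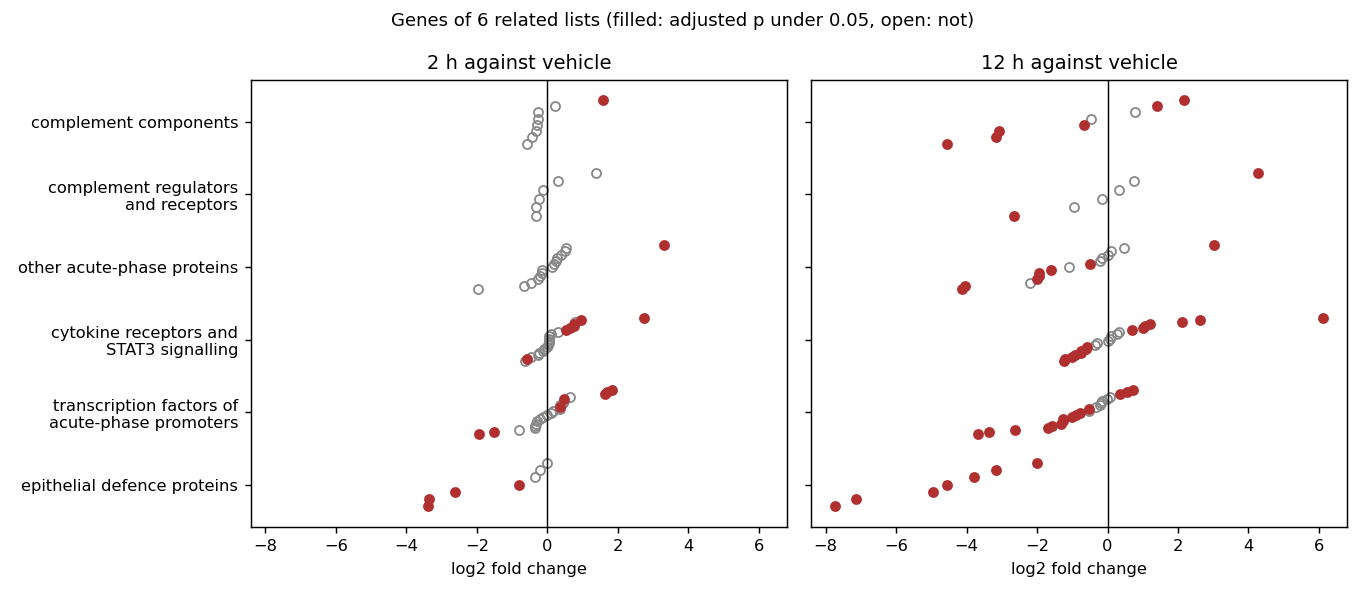
Log2FC against vehicle (x axis) of each tested gene of the 6 related lists (y axis; genes sorted by value within a list), at 2 h on the left and 12 h on the right; filled red points have an adjusted p under 0.05 and open grey points do not. At 12 h all 7 defence genes are filled and left of 0, and Clu at 4.27 and Il11 at 6.12 are the points farthest right in their lists; the tests of Il11, Il1rl1, C4a, Fga, Ccl20 and Slpi at 12 h are void, as are those of Fga, Ccl20 and Slpi at 2 h.

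In gene order on NCBIM37, 49 genes lay within 3 places on either side, 36 of them tested, and 2 were called at 2 h and 14 at 12 h (6 higher, 8 lower). Over all tested genes 15.2% and 43.3% were called, so the neighbours' share at 12 h is near that of all genes. With the block 8 were called at 2 h and 20 at 12 h, beside 29.1% and 55.3%. At 12 h 3 were called with an absolute log2FC above 1. Over all tested genes 8.18% lay above 1 and 12.3% below -1, called or not. Both direct neighbours of Cfi were among the 3: Gar1 (log2FC 1.35, SE 0.34, adjusted p = 0.0183) and Pla2g12a (log2FC 1.01, SE 0.14, adjusted p = 0.00149). The other was Pnrc2, 3 places from Il22ra1 (log2FC -1.08, SE 0.15, adjusted p = 0.00194). Of the 5 tested neighbours of Cfi, whose own direction at 12 h has no test, 3 were called in its direction at 12 h and 0 in the other. For Hp it was 1 and 1 of 4, for C3 0 and 1 of 3, for Cfb 2 and 0 of 6, for Cp 1 and 0 of 4, for Il22ra1 1 and 0 of 3, and for Saa3 0 and 0 of 2. Over all tested genes 21.8% were called higher at 12 h and 21.5% lower. Mcub, 3 places from Cfi, lay in the direction opposite to Cfi (log2FC -0.65), with an adjusted p of 0.0892 and, in the blocked fit, 0.00401. At 2 h Slc25a25, 3 places from Lcn2, rose by a log2FC of 1.06 (adjusted p = 0.00370). Calls among neighbours at 12 h numbered 8 without vehicle replicate 1, 7 without replicate 1 at 12 h and 6 without replicate 2 at 12 h.

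**Figure D4:**
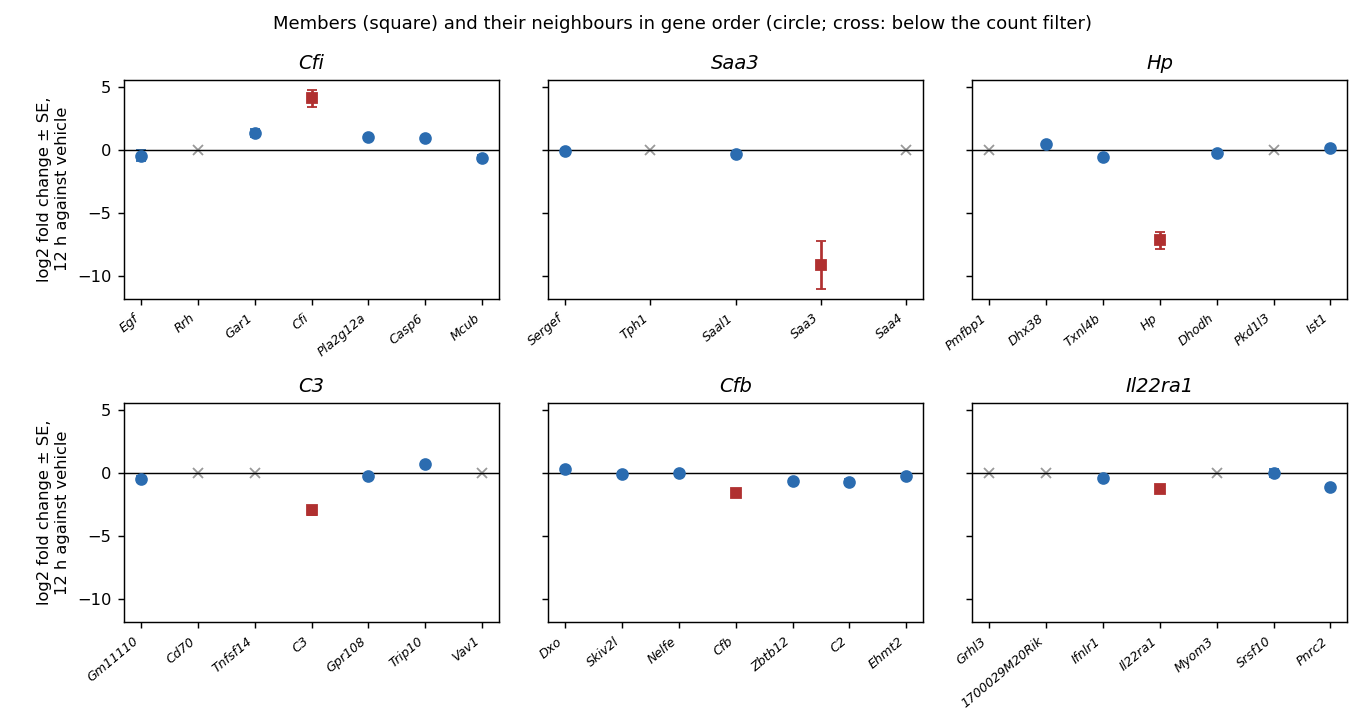
Log2FC at 12 h against vehicle with its SE (y axis) of 6 of the genes (red squares) and of the counted genes up to 3 places away in chromosomal order (blue circles; grey crosses at 0 are genes below the count filter, with no value), other listed genes left out. Saa3, Hp and C3 lie far below their neighbours, whereas Gar1 and Pla2g12a lie above 0 beside Cfi.

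The tested genes whose log2 CPM over the 6 libraries (pseudocount 0.25 CPM) followed Saa3 most closely were Ggcx, Ak3 and Shtn1, with Pearson's r of 0.999, 0.997 and 0.997. For Il22ra1 they were Shc1, Kif7 and Shb, with 0.999, 0.998 and 0.996. These are descriptions over 6 points that share the same libraries and groups, and 406 of 11079 genes had an r above 0.95 with Saa3 and 133 with Il22ra1.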

How the data were processed

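The deposited values are raw read counts per gene, with no normalization. The authors aligned 50-base single-end reads to mm9 with subjunc, kept unique alignments, removed duplicates with SAMtools 0.1.19 and counted stranded exon reads with featureCounts. Removing duplicates lowers counts of short, abundant transcripts most. The processing notes also name limma 3.34.9 and edgeR 3.20.9. Groups came from the labels.

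The analysis used edgeR 4.0.16 in R 4.3.3, with TMM factors, genes that reached 2 CPM in 2 or more libraries, 1 quasi-likelihood fit of the 3 groups, two-sided p-values adjusted by Benjamini-Hochberg over 11080 genes, called under 0.05. The SE is the absolute log2FC divided by the square root of the F statistic. The study used limma-voom, an alternative here (limma 3.58.1), as was DESeq2 1.42.0. Python 3.11.15 with pandas 2.3.3, Biopython 1.88 and matplotlib 3.10.9 served for positions and plots. The fit was tested on simulated data.

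Replicate numbers came from the sample titles. Deviations from group means correlated between libraries of the same number at 0.708 (vehicle and 2 h), 0.263 (vehicle and 12 h) and 0.392 (2 h and 12 h). The methods name no pairing, so the main fit did not use the replicate number, and the block is an alternative. The block lowered the common coefficient of variation from 0.148 to 0.0910. What separates the replicates is not given in the sources used here, so p-values measure the spread between these cultures.

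The genes and lists were chosen with earlier results of these data known. Named were all 10 genes, up to 4 called genes per list and time with the largest absolute log2FC, called neighbours with an absolute log2FC above 1, and the 3 genes most like Saa3 and each gene called at 2 h. C2, C4a, C1qa, C1qb, C1qc, Il22, Il10rb, Cd68, Csf1r, Mcub, Nfkbia, Nfkbie and the keratin genes were named after their values were seen. C7 was not analysed here. Positions are GENCODE on NCBIM37 (the mm9 assembly); 18958 genes had a position under their symbol and 1676 under a synonym, and the other 606 were not placed. Promoter windows are RefSeq on GRCm38.p6.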

Additional observations from a re-analysis of the deposited data

Results flagged for a closer look

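For 4 genes the change at 12 h differed from the change at 2 h by the direct edgeR test of 12 h against 2 h. They are all the genes tested there but Cp, beside 34.1% of all tested genes. The log2FC of that contrast was -6.63 for Hp, -2.82 for C3, -1.41 for Cfb and -2.35 for Il22ra1. Both 12 h libraries were below the 2 h libraries in each case, as for 34.2% of all tested genes. With 1 library left out the log2FC of that contrast ran from -1.75 to -0.98 for Cfb. For Cfi it was 2.64, but Cfi passed the filter on low counts only through the 12 h libraries, so its test is void. Il22ra1 is the gene among them whose means lay on opposite sides of vehicle, above it at 2 h and below it at 12 h. No cause of these differences was tested.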

How the results depend on the processing

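Of 160 summary values recomputed under other tools, scalings, filters, samples or prior counts, 143 stayed within the limits set for a change, as did 71 of 102 with 1 library left out. With the replicate block, calls at 2 h became 3 of the 7 tested genes (from 1), 2 components (from 1), 1 regulator (from 0), 5 other acute-phase genes (from 1), 14 transcription factors (from 7) and 8 neighbours (from 2), and regulators called at 12 h became 5 (from 2). The share of all tested genes called also rose with the block, from 15.2% to 29.1% at 2 h and from 43.3% to 55.3% at 12 h. The block changed Hp and Cp at 2 h and Cp at 12 h against 2 h, and no other call among the 10. Total counts without TMM factors gave 1 regulator and 4 neighbours at 2 h. At least 10 counts in every library left 0 other acute-phase genes at 2 h, 5 at 12 h and 3 of the 10 genes at 12 h against 2 h (from 5, Cfi counted), since Hp and Cfi were then not tested. With only the compared groups fitted, calls at 2 h were 0 components, 1 cytokine or receptor gene, 2 defence genes and 1 neighbour. The longest transcript in place of summed exons gave Cp 214 CPM per kb with vehicle.

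Counts of calls per list given here include the genes whose tests were void. For fits with a library left out or with only the compared groups, the share of all tested genes called was not computed. Changes in calls under these fits, here and in the paragraphs on the lists, therefore cannot be set beside those of all genes. With each library left out, calls ran from 0 to 3 of the 7 genes at 2 h (0 without either vehicle library, 3 without replicate 1 at 2 h) and from 3 to 6 at 12 h against 2 h (3 without either 12 h library), where Saa3 is left out and Cfi, with its void test, is counted. At 2 h they ran from 0 to 2 for components, 0 to 1 for regulators, 1 to 3 for other acute-phase genes, 0 to 7 for cytokines and receptors, 5 to 10 for transcription factors, 2 to 4 for defence genes and 1 to 3 for neighbours. At 12 h they ran from 3 to 7, 2 to 3, 3 to 9, 7 to 15, 9 to 15, 5 to 7 and 6 to 17. At 2 h the log2FC turned positive without vehicle replicate 1 for Saa3 (0.28), C3 (0.23) and Cfb (0.20), and without replicate 2 at 2 h for Saa3 (0.17), C3 (0.27) and Cfb (0.15). The lowest values, without replicate 1 at 2 h, were -2.26, -0.67 and -0.63. With 1 library left out, the log2FC at 2 h ran from -1.24 to -0.06 for Hp and from -1.05 to -0.10 for Cp. For Cp at 12 h against 2 h the adjusted p ran from 0.000957 to 0.271 over all alternatives. The log2FC of Saa3 at 12 h against vehicle was -7.11 by limma-voom and -5.14 with a prior count of 2. The causes were not tested. Depth limits the values of Saa1, Saa2, Lcn2, Cfi with vehicle, and Saa3 and Hp at 12 h, which are at or near 0 counts.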
